A study of Mus musculus with 12 samples.

Results

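The clustered protocadherins are a family of adhesion proteins of the neuronal surface that are encoded side by side in 3 gene clusters, alpha, beta, and gamma. All 57 genes of the count table with an alpha, beta, or gamma cluster symbol were taken as members, among 55418 gene symbols in all: 13 alpha, 22 beta, and 22 gamma genes. The 12 outbred CFW mice, each giving 1 library of brainstem RNA at postnatal day 15 (P15), fell into 4 groups of 3: saline females, morphine females, saline males, and morphine males. Morphine mice had received 15 mg/kg morphine and control mice saline, injected 2 times daily from P1 to P14, and tissue was taken 16 h after the last injection, in spontaneous withdrawal. Saline males and females were numbered 1 to 3 and 4 to 6, and morphine females and males 1 to 3 and 4 to 6. The stock is outbred, so the mice were not genetically alike, and no transgene or mutation was named for any group. Each litter was split between morphine and saline, but the sources used here did not give the dam of each mouse.

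In the alpha and gamma clusters, each gene contributes a large variable exon with its own promoter, and this exon is spliced to constant exons that the whole cluster shares. Beta genes have no shared constant exons. A neuron transcribes a small, largely random choice of the variable promoters, guided by DNA methylation, CTCF, and cohesin, and the proteins bind identical proteins on the neighboring cell. This gives the branches of a neuron a surface identity with which they avoid each other. The 5 C-type genes at the ends of the alpha and gamma clusters (*Pcdhac1*, *Pcdhac2*, *Pcdhgc3*, *Pcdhgc4*, and *Pcdhgc5*) are not part of this random choice, and the gamma-C4 protein is known for its role in the survival of neurons.

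All members lie on the plus strand of chromosome 18 (GRCm38, GENCODE M21 annotation). The alpha cluster spans 36930184 to 37187661, the beta cluster 37264938 to 37524479, and the gamma cluster 37661793 to 37841873. The layout set what could be counted. In the whole table, all 1185 symbols without an exon base free of other genes had 0 counts in every library, against 30.9% of the 54233 symbols with free bases. Of those 1185, 480 had bases free on their own strand and overlapped a gene on the opposite strand, so strand was not used. Reads on the shared constant exons were therefore not counted for any member, and the count of an alpha or gamma member came mainly from its variable exon. The free share of exon bases had a median of 46.4% among alpha members and 54.7% among gamma members. It was 100% in 19 of the 22 beta members.

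Totals ran from 27850565 to 48097947 counts per library, of which 7931 to 15490 fell on the members. In the library labelled morphine male 6, *Xist* was at 379.9 CPM (the count as a share of the library, scaled by edgeR's TMM), against 0.398 to 2.71 CPM in the other 5 males and 546.8 to 970.5 CPM in the 6 females. Its Y-linked *Ddx3y* was at 12.8 CPM, against 117.8 to 198.8 CPM in the other males and at most 0.729 CPM in females, so this library lay between the sexes. Saline male 3 differed from saline males 1 and 2, with a chi-square per degree of freedom of 198.1 and 257.3. The other 10 pairs of replicates had 12.5 to 45.2. This measure does not say which of these libraries was unusual. As examples, the oligodendrocyte gene *Mbp* was at 25768 and 27534 CPM in saline males 1 and 2. It was at 8351 CPM in saline male 3 and 8665 to 16491 CPM in the other mice. The neuronal gene *Slc17a6* was at 474.2 CPM in saline male 3 and 275.7 to 381.6 CPM in all other mice. Neuronal genes did not all go this way. *Rbfox3* was at 35.7 CPM in saline male 3 and 36.9 to 93.9 CPM in all other mice. *Eno2* was at 616.1 CPM there and 648.1 to 1202 CPM in all other mice. The 11 hindbrain *Hox* genes summed to 109.1 to 157.6 CPM and the 6 forebrain markers to 8.23 to 14.7 CPM. Most of the forebrain sum was 1 gene, *Neurod6*, at 7.02 to 13.2 CPM. The tissue label is brainstem, while the extraction text of the deposit names spinal cords. Which of them holds was not tested, and these sums do not settle it.

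The highest levels per length belonged to 3 C-type genes. Levels between genes were compared as CPM per kb of free exon, since raw CPM grows with the countable length. In the 6 saline mice, *Pcdhgc3* was at 10.8 ± 4.25 CPM per kb, *Pcdhac2* at 7.74 ± 1.08, and *Pcdhgc4* at 6.32 ± 1.64 (SD, n = 6 each). The ranges of all 3 over the mice overlapped, so their order was not clear. No other member passed 3.39 CPM per kb. The other 2 C-type genes stood among the variable ones, *Pcdhgc5* at 1.18 ± 0.217 and *Pcdhac1* at 1.08 ± 0.127 CPM per kb (SD, n = 6 each).

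**Figure D1:**
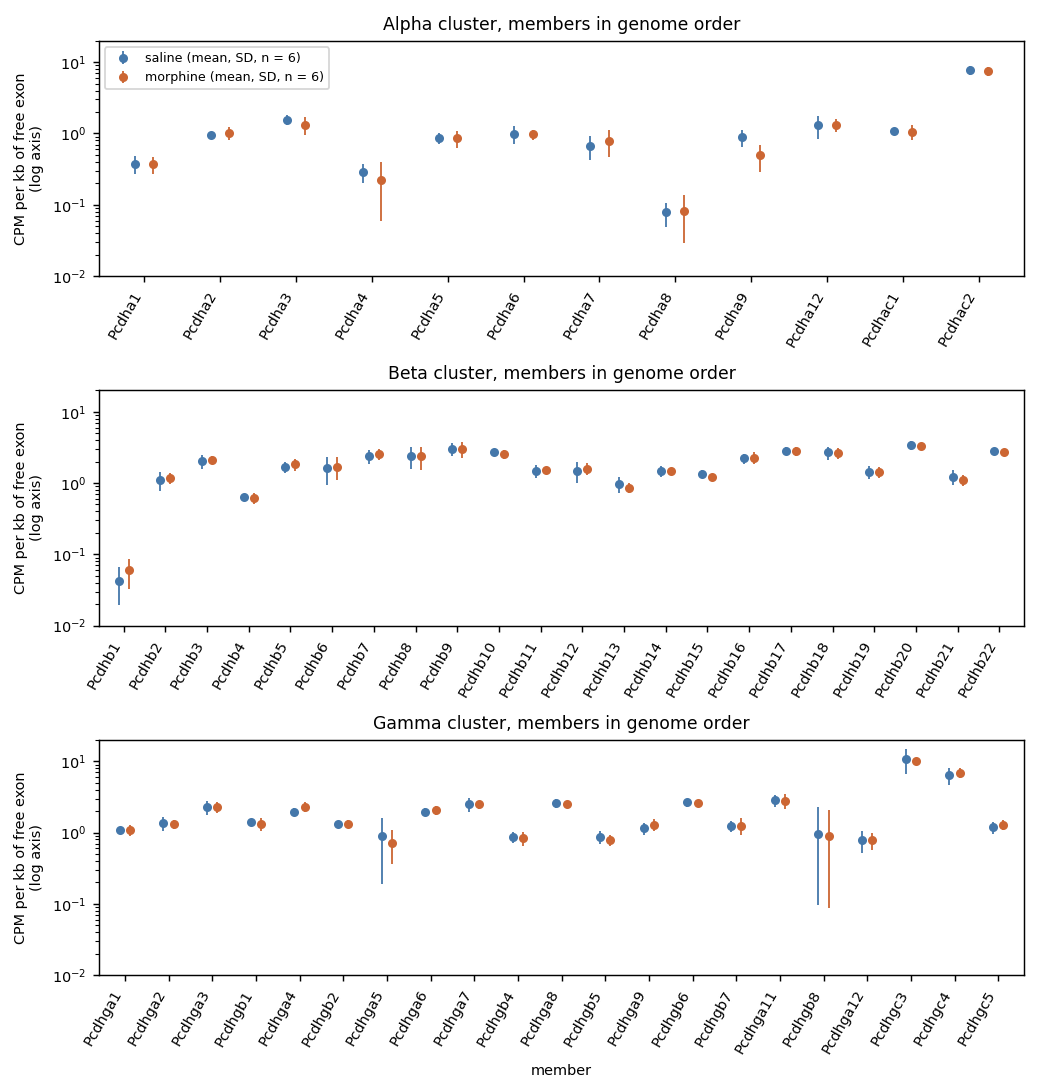
Level of each member per kb of free exon, in genome order within the alpha, beta, and gamma clusters. The y axis is CPM per kb on a log axis, and points and bars are the mean and SD of 6 saline (blue) or 6 morphine (orange) mice, with lower bars cut short where the SD came near or passed the mean. *Pcdhac2*, *Pcdhgc3*, and *Pcdhgc4* lie above all other members in both groups, and *Pcdha8* and *Pcdhb1* lie far below. *Pcdha11* and *Pcdhga10* are not drawn.

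Among the variable genes, those of the beta cluster were measured at 0.0423 to 3.39 CPM per kb with a cluster median of 1.64 (22 genes). *Pcdhb20* was the highest of them, at 3.39 ± 0.475 CPM per kb (SD, n = 6), followed by *Pcdhb9* at 3.02 ± 0.622, less than 1 SD away. *Pcdhb1*, the first gene of the cluster, was the lowest of the 55 members by this measure at 0.0423 ± 0.0231 CPM per kb, with 1 to 8 counts per library. The variable alpha genes had a median of 0.882 CPM per kb (10 genes), led by *Pcdha3* at 1.55 ± 0.242 and ending with *Pcdha8* at 0.0780 ± 0.0286. *Pcdha8* had 1 to 15 counts per library although 2478 of its exon bases were free. The variable gamma genes had a median of 1.34 CPM per kb and a narrow range (18 genes), from *Pcdhga12* at 0.785 ± 0.274 to *Pcdhga11* at 2.83 ± 0.513. Along the genome, levels followed position only loosely, with a Spearman coefficient between place in the cluster and level of 0.399 for 12 alpha, 0.338 for 22 beta, and 0.106 for 21 gamma genes, which share their libraries and are not independent. Without the C-type genes it was 0.067 for 10 alpha and -0.127 for 18 gamma genes.

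These orders depend on the countable length. When the whole exon length was used, the Spearman coefficient with the order above was 0.881 over 55 members. *Pcdhgc4* then came before *Pcdhgc3* in the gamma cluster, and *Pcdha4* took the last place of the alpha cluster from *Pcdha8*. *Pcdha4* and *Pcdha8*, at 0.0200 and 0.0362 CPM per kb of whole exon, then lay below *Pcdhb1*, and *Pcdhga11* went from the highest variable gamma gene to place 8 in its cluster. *Pcdha4* had only 404 free bases of 5768 because other annotated genes overlap the rest, and it had 0 to 6 counts per library. *Pcdhga10* had no free base, as the antisense gene Gm26672 covers its variable exon, and it was listed at 0 in all 12 libraries. That 0 therefore says nothing about its transcription. *Pcdha11* stands for 2 loci under 1 symbol and was given no level per length. Reads of a member and of an antisense transcript cannot be told apart where no overlap is annotated. BC037039, an antisense gene, overlaps *Pcdhgc3*, and only the free bases of *Pcdhgc3* were counted.

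The split of member reads between the clusters was alike in saline and morphine mice. Beta genes took 50.9% ± 5.75 of all member counts in saline mice and 50.9% ± 3.13 in morphine mice, gamma genes 35.2% ± 5.05 and 35.8% ± 2.29, and alpha genes 13.9% ± 1.25 and 13.3% ± 1.42 (SD, n = 6 each). *Pcdhac1* and *Pcdhac2* together made up 52.6% to 61.1% of the alpha counts. The 3 gamma C-type genes made up 32.9% to 50.2% of the gamma counts, lowest in saline male 3 and highest in saline male 2. A measure of evenness, the number of equally expressed genes that would give the same Shannon entropy of levels per length, was 5.83 to 6.94 of 12 alpha genes, 18.7 to 19.7 of 22 beta genes, and 11.7 to 15.8 of 21 gamma genes. By this measure the beta genes were the most evenly used in every mouse, but only the alpha and gamma sets include C-type genes. The measure was not computed without them. Among variable genes, the highest level per length was 3.60 times the lowest in the gamma cluster. In the beta cluster it was 80.2 times the lowest, that of *Pcdhb1*. The lowest gamma value of evenness belonged to saline male 2, the mouse with the most *Pcdhgc3*.

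Summed over each cluster, the levels of the treatment groups overlapped. In bulk RNA, fewer cells of a type and less RNA per cell cannot be told apart. The alpha sum was 47.9, 51.6, and 52.2 CPM in saline males and 44.5, 47.2, and 55.0 CPM in morphine males. In females it was 39.1, 41.8, and 46.7 CPM with saline and 33.6, 43.0, and 43.6 CPM with morphine. In the comparison of 6 against 6 mice, the log2 difference of the summed level, morphine minus saline, was -0.07 for alpha, -0.00 for beta, and 0.02 for gamma, each below the SD between mice of 0.15, 0.14, and 0.21 on that scale. Saline male 3 had the lowest gamma sum, 94.1 CPM, and the highest beta sum, 189.6 CPM, of all mice. The other saline males had gamma sums of 138.1 and 138.4 CPM. Without that library and the one labelled morphine male 6, the male log2 difference of the gamma sum was -0.20 in place of 0.03, an alternative chosen after seeing the data.

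**Figure D2:**
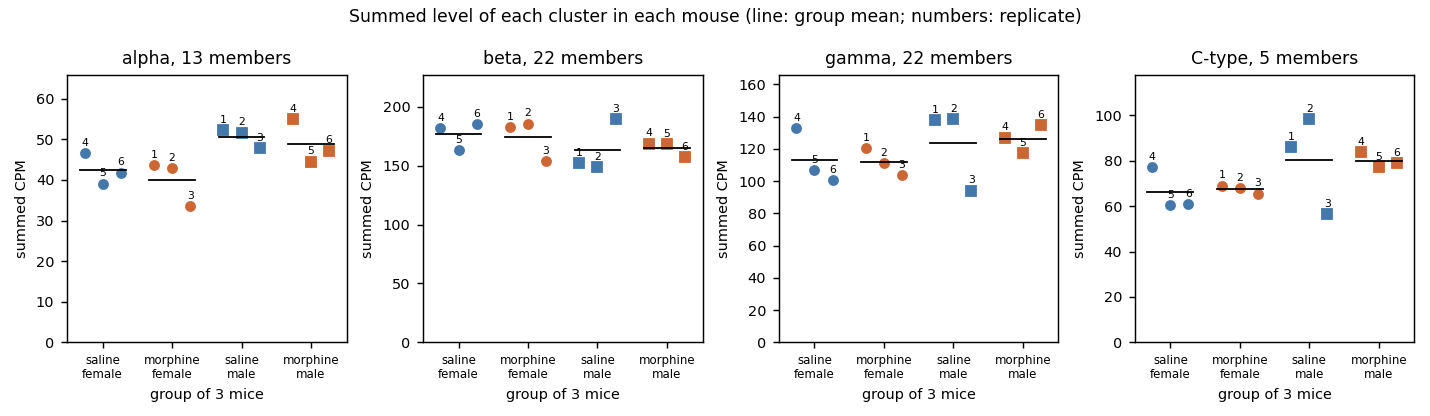
Summed CPM of the alpha, beta, gamma, and C-type genes in each mouse. The x axis gives the 4 groups of 3 mice, each point is a mouse with its replicate number, lines are group means, and blue and orange are saline and morphine. The saline and morphine mice of each sex overlap in each panel, and saline male 3 has the lowest gamma (94.1 CPM) and C-type (56.6 CPM) sums.

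The member that varied most between mice did not follow treatment or sex. *Pcdhgb8*, a variable gamma gene that the annotation classes as a polymorphic pseudogene, was singled out after its values were seen. Its level was 4.71 CPM in saline male 1, 7.98 in saline female 4, 6.67 in morphine female 1, and 5.40 in the library labelled morphine male 6. In the other 8 mice it was 0.175 to 0.651 CPM. By the labels, each of the 4 groups thus held 1 mouse with a high level and 2 with a low one. The library labelled morphine male 6 lay between the sexes, so the split by sex rests on its label. The lowest of the high values was 7.23 times the highest of the low ones. Of the 100-base stretches of its annotated exons, 52.8% occurred in no other gene, near the 54.1% of its exon bases that were free. In counts, *Pcdhgb8* ran from 6 to 274 per library, and it took 6.02% of all gamma counts in saline female 4 but 0.126% in saline male 2. With the groups split in this way, its log2 fold change was -0.07 with a standard error (SE) of 1.04, and its unadjusted p was 0.948 in edgeR's quasi-likelihood test over 6 against 6 mice. Each estimate turned on the high mice. When morphine female 1 was left out, the female log2 fold change went from -0.28 to -2.99, with an unadjusted p of 0.0471, and without saline female 4 it was 2.14. In males it went from 0.14 to 2.52 without saline male 1 and to -3.02 without the library labelled morphine male 6.

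The biological coefficient of variation (BCV), edgeR's estimate of the spread between mice beyond counting error, was 1.17 for *Pcdhgb8*. That was the 10th highest of the 18608 genes tested. The median was 0.201 over the 53 members tested and 0.196 over all genes, and *Pcdhga5* came next at 0.544, above 98.5% of all genes. *Pcdhac2* had the lowest BCV of the members tested, 0.138. Its highest level over the 12 mice was 1.54 times its lowest, a ratio that was smaller in other members, such as 1.31 for *Pcdhb22*.

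The same 4 mice stood at one end of the order in other members. Their levels of *Pcdhga5* were 3.55, 5.39, 3.29, and 2.69 CPM, against 0.906 to 1.60 in the other 8 mice. They also had the highest 4 levels of the beta gene *Pcdhb6*, at 6.61 to 10.8 CPM against 3.24 to 5.68, and of the gamma gene *Pcdhga12*, at 4.28 to 4.47 against 1.87 to 3.74. The gaps were smaller for *Pcdhgb5* (4.21 to 5.57 against 2.72 to 3.74 CPM) and *Pcdhga11* (3.82 to 4.69 against 2.86 to 3.81 CPM). In the opposite direction, the 4 mice had the lowest levels of *Pcdhb9*, at 5.93 to 7.48 CPM against 8.46 to 12.6, and of *Pcdhb18*, at 10.4 to 11.0 against 11.9 to 17.1. Counting *Pcdhgb8* itself, these 4 mice were the highest 4 in 6 of the 53 members tested (11.3%) and in 56 of all 18608 genes (0.301%). They were the lowest 4 in 2 members (3.77%) and in 97 of all genes (0.521%). These counts describe 12 libraries, the order was chosen from *Pcdhgb8*, and the members lie next to each other on 1 chromosome.

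**Figure D3:**
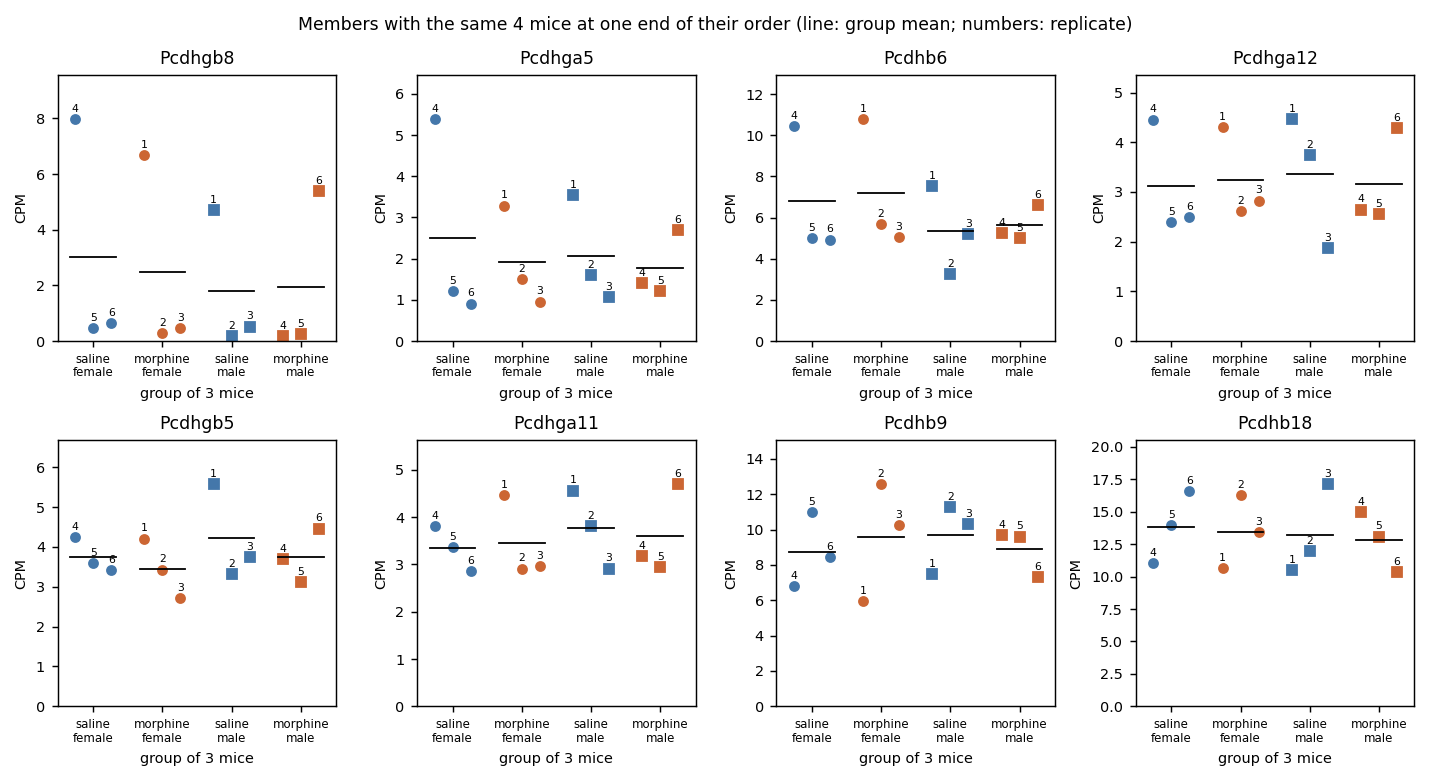
CPM of the 8 members for which the same 4 mice had the 4 highest or the 4 lowest levels. The x axis gives the groups of 3 mice, each point is a mouse with its replicate number, lines are group means, and blue and orange are saline and morphine. Saline female 4, morphine female 1, saline male 1, and the library labelled morphine male 6 lie above all others in 6 panels and below them for *Pcdhb9* and *Pcdhb18*.

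The effect of morphine on each member was asked in the sex-combined comparison, with sex as a covariate, and in each sex alone. *Pcdha9*, a variable alpha gene, was the only member called, and it was lower in morphine mice. Here a call is an unadjusted p under 0.05 with an absolute log2 fold change over 0.26, the thresholds of the study. In the sex-combined comparison 1 of 53 members (1.89%) was called, against 1.19% of all 18608 genes tested. The share of members was thus near the background. After Benjamini-Hochberg adjustment in edgeR, 0 members and 0 genes of all passed 0.05 in any of the 3 comparisons.

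*Pcdha9* was at 2.57, 2.59, and 2.87 CPM in saline males and at 0.684, 1.44, and 1.68 CPM in morphine males, so the male groups did not overlap. In females it was at 1.28, 1.84, and 2.12 CPM with saline and at 0.477, 1.38, and 1.66 CPM with morphine, and the female groups overlapped. Over all mice it was at 2.21 ± 0.588 CPM in saline and 1.22 ± 0.514 CPM in morphine mice (SD, n = 6 each), and the range of the 6 saline mice overlapped that of the 6 morphine mice. Its sex-combined log2 fold change was -0.81 (SE 0.29), with an unadjusted p of 0.0137 and an adjusted p of 1.00. In males the log2 fold change was -1.08 (SE 0.34), with an unadjusted p of 0.0152, and in females -0.57 (SE 0.41), with 0.198. The difference between the sexes, a log2 interaction of -0.50 (SE 0.57), had an unadjusted p of 0.399. The gene had 13 to 131 counts per library. Its call held in all 12 sex-combined fits and all 6 male fits that left out 1 mouse, with log2 fold changes of -0.65 or lower and -0.78 or lower. Saline males 1, 2, and 3 had the highest 3 levels of all 12 mice.

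**Figure D4:**
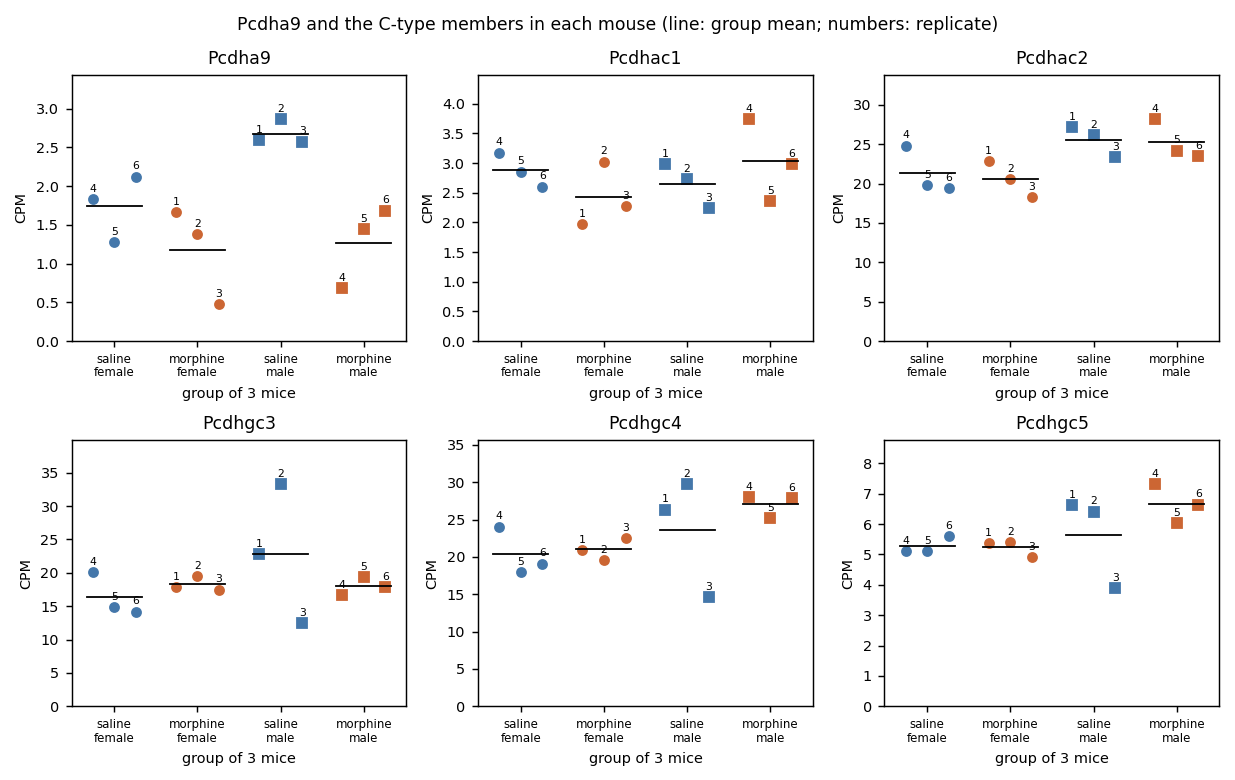
CPM of *Pcdha9* and the 5 C-type members in each mouse, with the y axis from 0. The x axis gives the groups of 3 mice, points are mice with their replicate numbers, lines are group means, and blue and orange are saline and morphine. For *Pcdha9* all 3 morphine males lie below all 3 saline males. For *Pcdhgc3*, *Pcdhgc4*, and *Pcdhgc5*, saline male 3 lies below every other mouse.

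In the males 1 of 53 members (1.89%) was called, against 2.99% of the 18166 genes tested, and in the females 0 of 53, against 1.81% of 18109. Male groups did not overlap for 5 members (9.43%), against 9.1% of all genes. Besides *Pcdha9* these were *Pcdha2*, *Pcdhb3*, *Pcdhga4*, and *Pcdhga9*, with log2 fold changes of 0.15 (SE 0.19), 0.20 (0.18), 0.39 (0.20), and 0.44 (0.23). Scaling by total counts, which moved the male median of all genes by 0.13, added *Pcdhga4* (0.52) and *Pcdhga9* (0.56) to the male calls, both higher with morphine, and raised the calls over all genes from 543 to 807. *Pcdhga4* was at 2.65, 2.67, and 3.50 CPM in saline males and at 3.69, 3.69, and 4.29 CPM in morphine males. Female groups did not overlap for 0 of 53 members, against 5.65% of all genes, and in the sex-combined comparison for 0 of 53, against 0.043%. For the interaction of treatment and sex, 0 of 54 members had an unadjusted p under 0.05, against 2.94% of 19027 genes. The lowest was 0.0831, for *Pcdhga9*, whose log2 fold change was 0.44 in males and -0.13 in females.

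As a group the members were spread around no difference. In the sex-combined comparison 26 of 53 had a positive (49.1%) and 27 a negative log2 fold change, with a median of -0.00. Of all genes tested 42.6% were positive, with a median of -0.02. By cluster the medians were -0.01 for 11 alpha, 0.01 for 21 beta, and 0.00 for 21 gamma genes. In females 18 of 53 (34%) were positive with a median of -0.06, against 48.2% and -0.01 over all genes. In males 28 of 53 (52.8%) were positive with a median of 0.01, against 37.6% and -0.06. The beta genes had a narrow range in the sex-combined comparison, from -0.14 to 0.15. Their range was -0.26 to 0.26 in females and -0.17 to 0.31 in males. *Pcdha4*, *Pcdha8*, *Pcdhb1*, and *Pcdhga10* did not pass the filter on low counts and were not tested in these 3 comparisons. SEs in the sex-combined comparison ran from 0.10 for *Pcdhac2* to 1.04 for *Pcdhgb8*, so the precision differed widely between members.

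**Figure D5:**
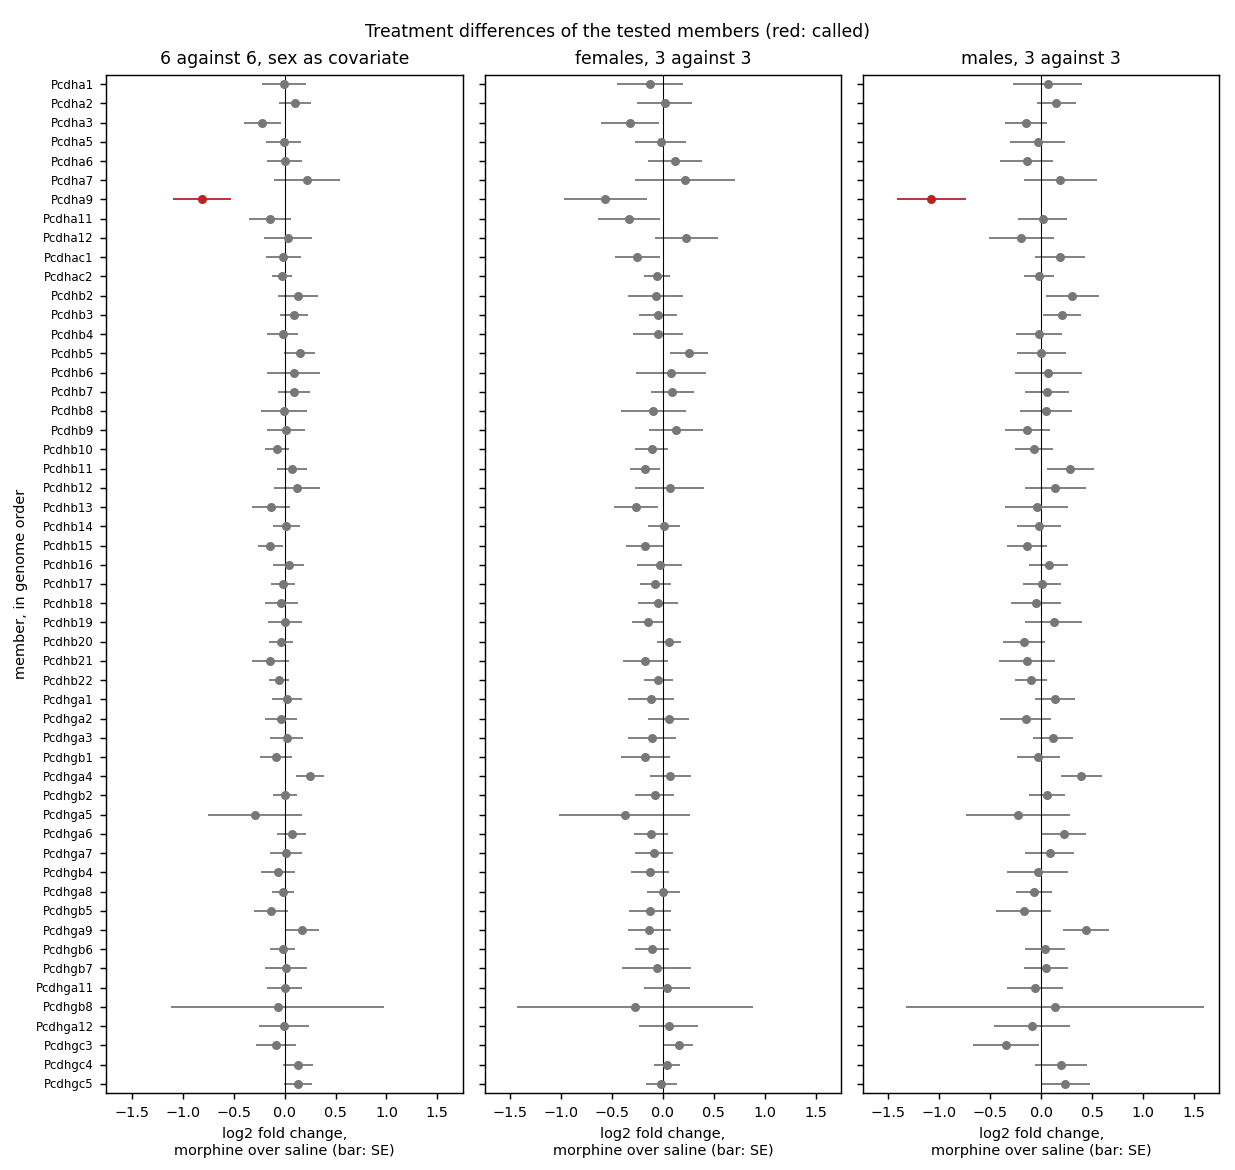
Log2 fold change of morphine over saline for the 53 tested members, in genome order. The panels show the sex-combined, female, and male comparisons, points are estimates, bars are SEs, and red marks a call. *Pcdha9* is the red point at -0.81 and -1.08, and *Pcdhgb8* has the widest bars.

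The 5 C-type genes, 3 of which had the highest levels per length, were called in none of the comparisons. *Pcdhac2* was at 19.4 to 27.2 CPM in saline mice (median 24.1) and 18.3 to 28.2 in morphine mice (median 23.2), with a sex-combined log2 fold change of -0.02 (SE 0.10). *Pcdhac1* was at 2.24 to 3.18 CPM (median 2.80) and 1.97 to 3.75 CPM (median 2.67), with -0.01 (SE 0.17). *Pcdhgc4* was at 14.6 to 29.7 CPM (median 21.6) and 19.6 to 28.0 CPM (median 23.9), with 0.13 (SE 0.15). For these genes and for *Pcdhgc5* (0.13, SE 0.14) the ranges of saline and morphine mice overlapped.

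The male value of *Pcdhgc3* depended on single libraries. It was at 12.5, 22.8, and 33.3 CPM in saline males and 16.6, 17.8, and 19.4 CPM in morphine males, with the lowest and the highest level of all 12 mice both among the saline males. Its male log2 fold change was -0.35 (SE 0.33), with an unadjusted p of 0.319. Without saline male 2, which was at 33.3 CPM, it was 0.01. Without saline male 3, which was at 12.5 CPM, it was -0.61 (SE 0.16), with an adjusted p of 0.0422 in edgeR's quasi-likelihood test. That fit had only saline males 1 and 2 for saline, a pair with a chi-square per degree of freedom of 12.5. In it 3 of 54 members were called in the males, *Pcdha9*, *Pcdhb11*, and *Pcdhgc3*. Of all genes 5341 were called, where 543 were called with saline male 3 included. A call in that fit was thus not particular to *Pcdhgc3*. The interaction of *Pcdhgc3* moved likewise from -0.49 (SE 0.38) to -0.80 (SE 0.23). In females *Pcdhgc3* was at 14.2, 14.9, and 20.2 CPM with saline and 17.5, 17.9, and 19.5 CPM with morphine, and the groups overlapped.

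Markers of other cell types moved between the same groups. In the males 5 of 8 choroid plexus genes were called higher with morphine (summed level 1673 to 1959 CPM in saline and 1710 to 2726 CPM in morphine males), and 3 of 8 cerebellar granule cell genes (129.6 to 154.4 and 146.0 to 217.7 CPM). Of all genes 2.99% were called in males. In females all 8 choroid plexus genes were lower with morphine and 0 were called. Their sums there were 1313 to 2324 CPM with saline and 1368 to 1472 CPM with morphine. Most of the choroid plexus sum in every mouse of both sexes was 1 gene, *Enpp2*, at 1230 to 1879 CPM. The sums thus hide wider differences in other genes of the list. *Ttr* ran from 1.28 to 423.3 CPM in saline females and from 18.9 to 149.1 CPM in morphine females. In males, 1 of 8 oligodendrocyte genes (38637 to 60539 and 33737 to 42721 CPM) and 1 of 6 oligodendrocyte precursor genes (645.9 to 1261 and 785.8 to 851.5 CPM) were called lower. Saline male 2, highest for *Pcdhgc3*, also had the highest oligodendrocyte sum. In the females 3 of 8 meningeal fibroblast genes (133.2 to 200.3 CPM in saline and 79.3 to 145.7 CPM in morphine females) were called lower and 1 of 8 astrocyte genes higher. Of all genes 1.81% were called in females. In the sex-combined comparison, 1 of 8 meningeal fibroblast genes and 2 of 11 hindbrain *Hox* genes were called lower and 3 of 8 cerebellar granule cell genes higher. The share over all genes there was 1.19%. Of 12 neuronal genes, 0 were called in any of the 3 comparisons. Of the genes on these lists, only the choroid plexus gene *Folr1* was at 0 in a library, saline female 4. Their part in the *Pcdha9* and *Pcdhgc3* values was not tested.

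Genes that act on or with the clusters were taken from lists chosen by function. Of 24 regulators of cluster chromatin, among them CTCF, the cohesin subunits, and the DNA methyltransferases, 0 were called in the sex-combined, female, or male comparisons, and the sex-combined median log2 fold change was 0.03. *Setdb1*, a histone methyltransferase known to act at these clusters, had a log2 interaction of 0.40 (SE 0.18), with an unadjusted p of 0.0489, and it lost this call in 12 of 18 other settings. It was 1 of 24 regulators called for the interaction, against 2.94% of all genes. Of 26 partners of the proteins, 0 were called in the sex-combined and male comparisons. In the females *Nckap1*, a subunit of the WAVE complex that drives actin branching, was called higher, at 0.38 (SE 0.08), and its interaction of -0.62 (SE 0.21) had an unadjusted p of 0.0112. It was the only partner called, 1 of 26 in the females, against 1.81% of all genes, and 1 of 26 for the interaction, against 2.94%. Of 13 genes from outside the clusters, 12 non-clustered protocadherins and *Cdhr1*, 0 were called in any of the 3 comparisons, with a sex-combined median of -0.03.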

How the data were processed

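Poly-A RNA of 12 brainstems was sequenced as 100 bp single-end reads. Per the labels and methods, the authors used Trimmomatic for trimming, STAR for alignment to mm10, and featureCounts for counting over the exons of an Ensembl annotation. The methods call the deposited values normalized read counts, but the table holds whole numbers with totals that differ between libraries, and it was used as raw counts per gene symbol, as the authors' counting step gives them. All 55418 symbols matched GENCODE M21, which gave positions and free exon bases. Counts were scaled by TMM, filtered by filterByExpr, and tested with edgeR 4.0.16's quasi-likelihood test (glmQLFit, glmQLFTest) in R 4.3.3 over all genes, with Benjamini-Hochberg adjustment. The sex-combined comparison had sex as a covariate. Dam was not in the labels and not used, although the authors list it as a covariate. The code was tested on simulated data. Named genes were all called members, the C-type genes, the highest and lowest of each cluster per length, the 3 most extreme outliers (the closing section gives all 9), members that were not tested, and called genes of the context lists. Members named for their order over the mice or for groups that did not overlap were chosen after their values were seen. All members and lists were chosen with earlier results of these data known. DESeq2 1.42.0, edgeR's exactTest, other scalings and filters, a replicate block, and leaving out mice were tried as alternatives. Depth was 27850565 to 48097947 counts per library.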

Additional observations from a re-analysis of the deposited data

Results flagged for a closer look

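Within the 6 saline or the 6 morphine mice, 9 of 114 tested sets of values (53 members and 4 sums in each group) had a mouse farther from the others than Dixon's 95% critical value of 0.625 allows. Chance flags about 1 in 20, but neighboring genes and sums of the same genes are not independent sets. The 4 libraries with high *Pcdhgb8* each held at least 1 flag. They are saline male 1, saline female 4, morphine female 1, and the library labelled morphine male 6. *Pcdhgb4* was at 4.20 CPM in saline male 1, where the other saline mice were at 2.76 to 3.00 CPM. Saline female 4 stood out for 2 neighboring beta genes, *Pcdhb8* at 14.1 CPM against 5.97 to 7.84 and *Pcdhb7* at 11.9 CPM against 6.98 to 8.52. Morphine female 1 stood out for *Pcdhb6* at 10.8 CPM, against 5.02 to 6.61 in the other morphine mice, and for *Pcdhgb7* at 1.05 CPM, against 2.38 to 2.79. Among morphine mice, *Pcdhb13* was at 4.22 CPM in morphine male 4, *Pcdha2* at 1.47 CPM in morphine female 3, and *Pcdha6* at 2.42 CPM in the library labelled morphine male 6. *Pcdhb20* was at 15.2 CPM in saline male 3, against 10.5 to 12.3 CPM in the other saline mice.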

How the results depend on the processing

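Of 200 recomputed counts, medians, and sums, 187 stayed within 1.5 times the reported count or within 1 SD between mice. For the cluster sums this SD was larger than each reported difference, so a change of sign could still count as within it. The sex-combined gamma difference, reported as 0.02, ran from -0.08 to 0.08 when 1 mouse was left out, and all 12 values counted as within 1 SD. For such sums the limit therefore says little about direction. *Pcdha9* was called in all 21 other sex-combined and all 14 other male settings, with adjusted p of 0.900 to 1.00 and 0.00440 to 1.00, the lowest without saline male 3 and the library labelled morphine male 6. Leaving out 1 mouse gave 1 member in the sex-combined, 0 to 2 in the female, 1 to 3 in the male comparison, and 0 to 2 for the interaction. The female counts were 2 (*Pcdhb13*, *Pcdhgc3*) without saline female 4 and 1 (*Pcdhgb8*) without morphine female 1, where all genes had 1482 and 208 calls in place of 328. The male median was -0.0284 to 0.123. Scaling by total counts gave 3 members in males (807 of all genes, in place of 543) and 1 for the interaction (701, in place of 559), a male median of 0.13 and a male alpha difference of 0.0632 in place of -0.07. It moved the male median of all genes by 0.13. An alternative chosen after seeing the data left out saline male 3 and the library labelled morphine male 6. It called 8 of 52 members in males, where 7548 of all genes were called. For the interaction it called 4 of 54 members, where 5967 of all genes were called. The male gamma difference was then -0.20. Male fits without saline male 3 had only saline males 1 and 2 for saline. They called 5341 genes, and those without both libraries 7548, against 543 with all males. For the interaction, 4705 genes were called without saline male 3 and 952 without saline female 4. The cause was not tested. By whole exon length the member order had a Spearman coefficient of 0.881 with the reported one. The replicate number as a replicate block gave 1 member called, and deviations of same-numbered mice correlated at -0.343 to 0.178, so the numbers did not pair the mice. Members with few counts, such as *Pcdha8*, were limited by depth.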
